A study of Homo sapiens with 14 samples.

Results

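The open chromatin described here lies in the 1q21 gain region, the part of the long arm of chromosome 1 just beyond the centromere, in 2 human multiple myeloma (MM) cell lines, MM.1S and RPMI8226. Its members were all reference peaks, that is, accessible regions of a line's list, that started between 143.2 and 155.1 Mb of chromosome 1 in the hg38 build. There were 507 such peaks among the 72802 of the MM.1S list and 528 among the 79969 of the RPMI8226 list, 1035 of 152771 in all. Accessibility had been measured by Omni-ATAC, in which a transposase cuts and tags open DNA for sequencing. MM.1S had 9 libraries, 3 from a monoculture (MONO), 3 from the upper transwell (TSW) of a coculture with the bone marrow stromal line HS5, and 3 from the lower chamber (CO), where the cells touched the HS5 layer. RPMI8226 had 1 MONO, 2 TSW and 2 CO libraries. All cells were sorted as CD90- CD38+ after the same incubation, and each line stands for 1 culture line rather than for patients.

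Extra copies of 1q21 are among the common chromosome changes of MM. Genes there that have been studied as drivers include CKS1B, a cofactor for the degradation of the cell cycle inhibitor p27, and MCL1, which blocks apoptosis and on which plasma cells depend. The region also holds the epidermal differentiation complex, a block of genes for the skin barrier, the S100 genes for small calcium-binding proteins, a histone gene cluster, and gene families copied many times in recent human evolution. The name of the region refers to copy number, which was not measured here, since the lists give no read counts. Besides its position each peak has 1 value, its support, read as the number of libraries in which it was called. The lists pool the culture conditions, so that MONO, TSW and CO were not compared.

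The DNA of 7 accessible sites shows what the peaks contained. Each line below gives 200 bases of the plus strand of hg38, from the middle of the interval or peak. None overlaps an annotated exon. Capitals mark the letters of AP-1 (TGAGTCA), the ATF::CEBP pair (TGATGNAA) or STAT3 (TTCCNGGAA) on either strand, and in the first sequence the letters CCAAT.
SHC1 to CKS1B, the gap between 2 divergent gene starts, open in every library of both lines, chr1:154974425-154974624: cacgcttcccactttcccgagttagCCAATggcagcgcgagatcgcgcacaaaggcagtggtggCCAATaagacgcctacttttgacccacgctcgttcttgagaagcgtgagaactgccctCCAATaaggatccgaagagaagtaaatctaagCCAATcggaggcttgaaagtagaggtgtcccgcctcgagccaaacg
ENSA intron, upstream of MCL1, open in both lines, chr1:150604774-150604973: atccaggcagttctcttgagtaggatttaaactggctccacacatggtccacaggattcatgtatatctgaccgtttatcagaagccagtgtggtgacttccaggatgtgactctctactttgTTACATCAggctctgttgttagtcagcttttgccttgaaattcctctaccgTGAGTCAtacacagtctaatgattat
IL6R upstream, open in both lines, chr1:154398251-154398450: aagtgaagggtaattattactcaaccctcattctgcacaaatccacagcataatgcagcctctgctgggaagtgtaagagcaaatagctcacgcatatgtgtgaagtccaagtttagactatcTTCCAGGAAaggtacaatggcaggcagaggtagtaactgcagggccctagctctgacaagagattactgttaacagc
CHD1L upstream, open in RPMI8226 only, chr1:147237304-147237503: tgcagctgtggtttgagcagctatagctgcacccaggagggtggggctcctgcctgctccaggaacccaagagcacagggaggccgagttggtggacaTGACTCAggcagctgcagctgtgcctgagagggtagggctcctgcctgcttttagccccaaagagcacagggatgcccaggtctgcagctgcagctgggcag
POGZ upstream, open in RPMI8226 only, chr1:151464154-151464353: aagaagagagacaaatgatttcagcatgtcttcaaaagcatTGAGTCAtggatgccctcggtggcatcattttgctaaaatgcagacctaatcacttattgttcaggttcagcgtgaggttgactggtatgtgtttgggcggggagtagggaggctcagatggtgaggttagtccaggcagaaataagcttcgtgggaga
S100A14 near upstream, open in MM.1S only, chr1:153617583-153617782: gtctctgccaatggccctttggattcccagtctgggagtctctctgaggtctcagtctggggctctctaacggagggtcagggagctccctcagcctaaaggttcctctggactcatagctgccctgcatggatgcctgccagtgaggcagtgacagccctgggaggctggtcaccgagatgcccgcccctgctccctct
NBPF9 upstream, open in MM.1S only and in copied DNA, chr1:149211620-149211819: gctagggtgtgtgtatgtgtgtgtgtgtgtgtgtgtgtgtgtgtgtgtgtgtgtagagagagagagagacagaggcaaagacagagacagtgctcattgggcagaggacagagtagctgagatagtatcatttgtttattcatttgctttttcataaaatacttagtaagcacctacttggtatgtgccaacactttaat

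The CKS1B sequence held 4 copies of CCAAT, all on the plus strand, the letters bound by NF-Y, a factor of many cell cycle promoters. These letters were looked for after the sequence had been seen. Among promoter peaks of chromosome 1, at least 4 copies on either strand were found in the central 200 bp of 5 of 2952 MM.1S peaks (0.169%) and 8 of 3192 RPMI8226 peaks (0.251%). The printed stretch was centred on the gap between the gene starts and not on a peak. These shares are therefore not a like measure for it. A match is a description of the letters and does not show that a factor was bound.

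Taken as a whole, the window had more peaks per Mb than the rest of chromosome 1 in both lines. MM.1S had 42.6 peaks per Mb in the window and 30.8 per Mb in the rest of chromosome 1. RPMI8226 had 44.4 per Mb in the window and 37.2 per Mb in the rest. The window held 234 protein-coding genes in 11.9 Mb, and the rest of the chromosome 1827 in 218.6 Mb. The part of gene density in these values was not tested. The window held 7.0% of the MM.1S peaks of chromosome 1 (95% Wilson interval 6.44 to 7.61) and 6.10% of those of RPMI8226 (5.62 to 6.62). On the log2 scale the odds of a chromosome 1 peak lying in the window were higher in MM.1S by 0.21 (95% Woolf interval 0.03 to 0.40). For distal peaks, those more than 2500 bp from any annotated transcript start, the value was 0.37 (0.10 to 0.64), and for promoter peaks it was 0.0032 (-0.24 to 0.25), with no test of one against the other. It was 0.07 (-0.11 to 0.25) against all other peaks of chromosomes 1 to 22, and 0.09 (-0.13 to 0.31) without the copied section described below. These intervals and those below cover counting error over peaks only, since neighbouring peaks are not independent and each line has 1 list.

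MM.1S peaks were wider. Median widths were 577 bp (MM.1S) and 410.5 bp (RPMI8226), with 352 kb and 258 kb of the window covered. In the rest of chromosome 1 the medians were 540 bp (MM.1S) and 366 bp (RPMI8226). The wider MM.1S peaks were thus not particular to the window, which also bears on the widths at single genes below. Of the window, 209 kb was covered in both lines. Joining overlapping peaks of the lists gave 634 separate open regions, of which 371 (58.5%) were open in both lines, 136 in MM.1S only and 127 in RPMI8226 only. No such joining is given for the rest of the chromosome. In 27 of the regions open in both, 1 MM.1S peak stood over several RPMI8226 peaks, and the opposite was not seen, so that the number of peaks is not the number of open regions. Of the 344 regions with 1 peak from each list, 292 (84.9%) had the wider peak in MM.1S.

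**Figure D1:**
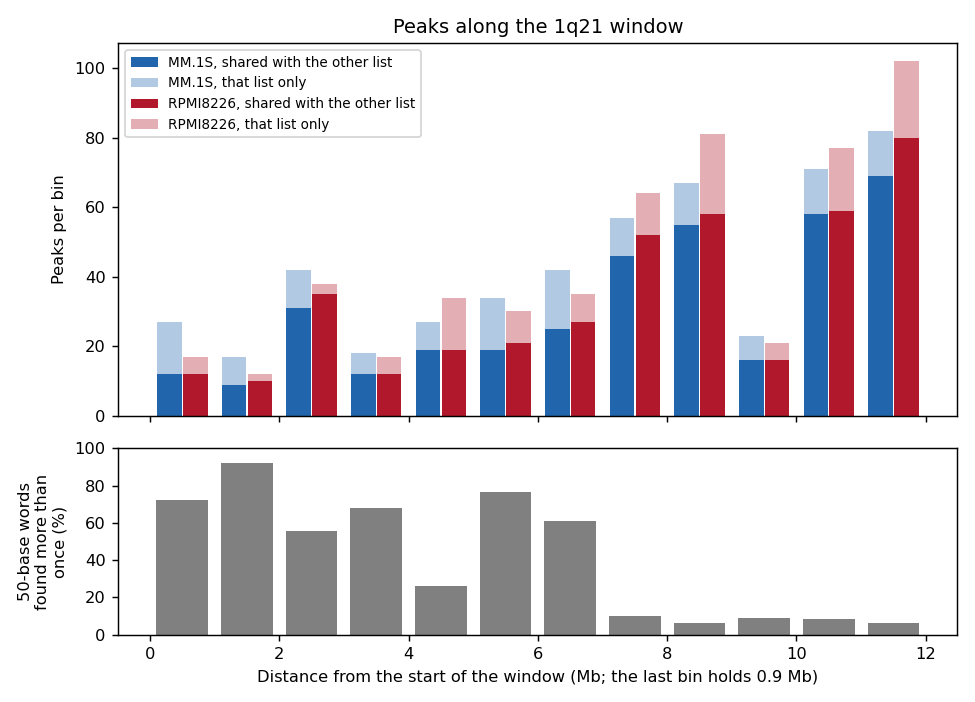
Upper panel, number of peaks in bins of 1 Mb along the window for MM.1S (blue) and RPMI8226 (red), with peaks shared between the lists in full colour and peaks of that list only in pale colour. Lower panel, share of the 50-base words of each bin that occur more than once in the genome. The repeated share runs from 25.9% to 92.3% in the first 7 bins and is at most 9.81% in the others. The first 7 bins hold up to 42 MM.1S peaks, bin 10 holds 23, and in the last bin RPMI8226 reached 102 peaks and MM.1S 82.

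The open regions were unevenly placed along the window. The first 6.68 Mb, up to the start of the histone gene H2BC21, is rich in copied DNA: 67.3% of its 50-base words occur more than once in the genome, against 8.22% in the next section. It held 186 MM.1S peaks (27.8 per Mb) and 163 RPMI8226 peaks (24.4 per Mb). Both values lie below those of the rest of chromosome 1, 30.8 and 37.2 per Mb. From H2BC21 to S100A10, the 2.10 Mb that contain MCL1, there were 62.0 peaks per Mb in MM.1S and 69.1 in RPMI8226. From S100A10 to S100A1, the 1.65 Mb of the epidermal and S100 genes, the values were 43.2 and 47.4 per Mb. The last 1.47 Mb, with IL6R, ADAR and CKS1B, was the most densely open of the 4 sections in both lines, at 81.5 peaks per Mb in MM.1S and 96.5 in RPMI8226. In the first section MM.1S had the higher number of peaks, and in each of the other 3 sections RPMI8226 had.

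Whether the lines opened the same places was asked by overlap, a peak being shared when at least 1 bp of it was also in a peak of the other line. In MM.1S 371 of 507 window peaks were shared (73.2%, 69.2 to 76.8), against 64.6% of its whole list and 71.0% in the rest of chromosome 1. The difference from the rest of the chromosome was 2.20 percentage points (95% Newcombe interval -1.96 to 6.03) and did not exceed counting error. In RPMI8226 401 of 528 were shared (75.9%, 72.1 to 79.4), against 62% of its whole list and 61.7% in the rest of chromosome 1. There the difference was 14.2 points (10.3 to 17.8). The odds ratio for sharing, window against rest, was 1.12 in MM.1S and 1.96 in RPMI8226, a ratio of 0.569 (0.427 to 0.760). This interval treats the lists as independent, although each shared place is counted in both. With the shared counts tied in this way, the ratio is not separate from the difference in peak number given above.

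In MM.1S the first section had the lowest shared percentage of the sections, and in RPMI8226 it did not. MM.1S shared 60.8% of its peaks there (53.6 to 67.5) and RPMI8226 73.6% (66.4 to 79.8), and 73 of the 136 peaks of MM.1S only lay in it. In the following sections the shared percentages were 80.0, 71.8 and 85.8 in MM.1S and 78.6, 67.9 and 80.3 in RPMI8226. Of the MM.1S peaks, 94 consisted by over 50% of repeated 50-base words. Of these 51.1% were shared (41.1 to 60.9), compared with 78.2% of the other 413 (74.0 to 81.9). RPMI8226 had 63 such peaks, and 76.2% of them were shared (64.4 to 85.0), compared with 75.9% of the remaining 465. The authors had left out reads that map to several places, and the part of this in the result was not tested. Without the first section, the sharing difference from the rest of chromosome 1 was 9.40 points in MM.1S (4.59 to 13.5) and 15.3 in RPMI8226 (10.6 to 19.4). The ratio of their odds ratios was then 0.807 (0.555 to 1.17).

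**Figure D2:**
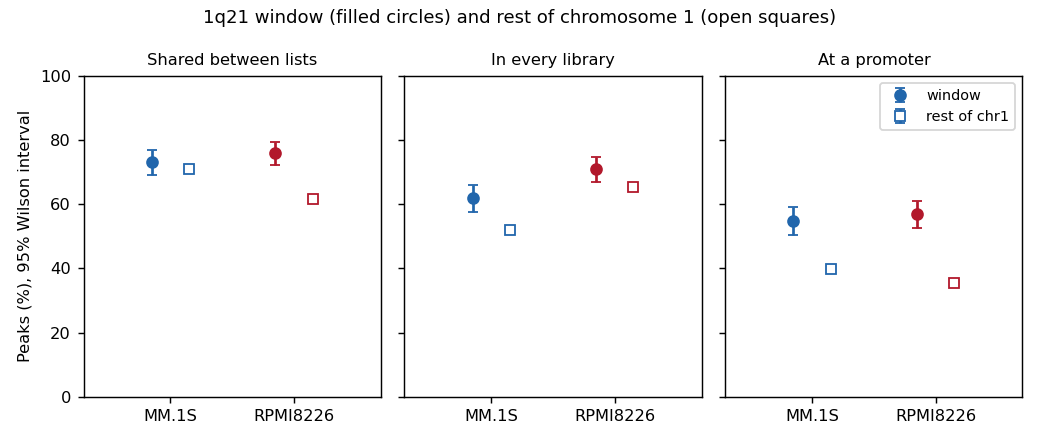
Percentage of peaks shared between the lists, called in every library of their line and lying at a promoter, with 95% Wilson intervals over peaks, for the window (filled circles) and the rest of chromosome 1 (open squares). The window lies above the rest in each panel, most clearly for promoters (54.8% against 39.7% in MM.1S and 56.8% against 35.6% in RPMI8226), and for sharing in MM.1S the interval of the window includes the value of the rest.

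Peaks of the window were also called in more libraries. In MM.1S 314 peaks (61.9%, 57.6 to 66.1) were called in all 9 libraries, against 52% of its whole list and 52.1% in the rest of chromosome 1. The difference from the rest was 9.85 points (5.39 to 14.1). In RPMI8226 375 peaks (71.0%, 67.0 to 74.7) were called in all 5, against 64.1% of its whole list and 65.4% in the rest, a difference of 5.57 points (1.43 to 9.42). It was 2.47 points (-0.70 to 5.12) for RPMI8226 peaks called in at least 4. For promoter peaks the difference was 9.90 points in MM.1S (4.30 to 14.8) and 6.50 in RPMI8226 (1.41 to 10.9). For distal peaks it was 1.67 points in MM.1S (-4.79 to 8.32) and -2.30 in RPMI8226 (-8.91 to 4.05), within counting error in both lines.

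Support went with sharing and width inside the window. MM.1S peaks called in 3 libraries had a median width of 269 bp and 32.1% of them were shared, whereas those called in all 9 had a median width of 783 bp and 86.9% were shared. RPMI8226 peaks called in 3 libraries had a median width of 199 bp and 46.2% were shared, and those called in all 5 had a median of 495 bp with 86.4% shared. Of the 344 regions with 1 peak from each list, 225 (65.4%) were called in every library of both lines. Even so, 41 peaks of MM.1S only and 51 of RPMI8226 only were called in every library of their line. Of these, 9 in MM.1S and 3 in RPMI8226 consisted by over 50% of repeated words. With only peaks called in every library, the sharing difference from the rest of chromosome 1 was 1.60 points in MM.1S (-2.72 to 5.10). In RPMI8226 it was 11.8 points (7.77 to 15.1).

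**Figure D3:**
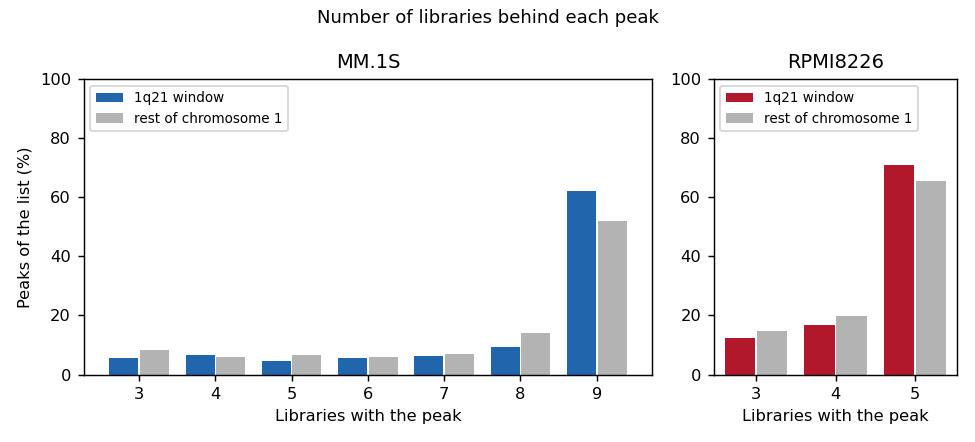
Percentage of peaks by the number of libraries in which they were called, for MM.1S (left, 3 to 9 libraries) and RPMI8226 (right, 3 to 5 libraries), in the window (colour) and in the rest of chromosome 1 (grey). In both lines the highest bar is the full number of libraries, at 61.9% in MM.1S and 71.0% in RPMI8226, and it stands above the grey bar.

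The window was rich in open promoters. In MM.1S 278 peaks (54.8%) lay within 2500 bp of a transcript start, against 39.2% of its whole list and 39.7% in the rest of chromosome 1, a difference of 15.1 points (10.6 to 19.5). In RPMI8226 300 peaks (56.8%) did, against 36% of its whole list and 35.6% in the rest, a difference of 21.2 points (16.8 to 25.5). The ratio of the corresponding odds ratios was 0.773 (0.600 to 0.998), and 0.758 (0.555 to 1.04) without the first section. Of the distal peaks, introns held 99 in each line, exons 25 (MM.1S) and 17 (RPMI8226), and all others lay between genes. Median GC content of promoter peaks, in the window and in the rest of chromosome 1, was 56.4% and 58.8% in MM.1S and 55.7% and 56.6% in RPMI8226.

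Read by gene, MM.1S had promoter peaks at 166 of the 234 protein-coding genes of the window (70.9%), against 76.8% of all coding genes and 77.9% on the rest of chromosome 1. In RPMI8226 155 genes did (66.2%), against 71.8% of all coding genes and 75.6% on the rest. These were differences of -6.95 points (-13.3 to -1.16) and -9.35 points (-15.9 to -3.25). Both lines had a promoter peak at 150 genes, MM.1S only at 16, RPMI8226 only at 5, and neither at 63. No such counts are given for genes outside the window. Without the 45 genes of the epidermal differentiation complex promoters were open at 84.1% of genes in MM.1S and 78.8% in RPMI8226. This is 6.24 points above the rest of the chromosome in MM.1S (0.076 to 11.2) and 3.25 points in RPMI8226 (-3.40 to 8.84).

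**Figure D4:**
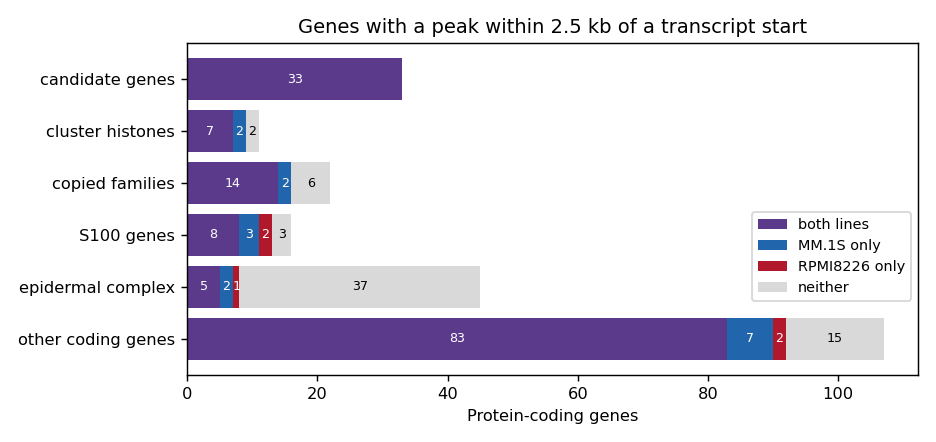
Number of protein-coding genes of the window with a peak within 2.5 kb of a transcript start in both lines (purple), MM.1S only (blue), RPMI8226 only (red) or neither (grey), by gene list. All 33 genes of the candidate list, which includes neighbouring genes, had one in both lines, and 37 of the 45 epidermal genes had one in neither.

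The candidate list of 1q21, which holds studied candidates and neighbouring genes, had open promoters throughout. The list was chosen for this description with earlier results of these data known. All 33 of its genes, from POLR3C to CKS1B, had a promoter peak called in every library of both lines. So did 139 of all 234 genes, the 33 included, and 78 of the 107 coding genes in none of the lists. No share over all coding genes is given for this measure. A promoter peak with any support was found at 76.8% of all coding genes in MM.1S and 71.8% in RPMI8226. The widest promoter peak of a listed gene ranged from 620 to 1726 bp in MM.1S (median 1089) and from 468 to 1530 bp in RPMI8226 (median 796). Among the listed genes were PSMD4 and PSMB4, which encode subunits of the proteasome, the target of drugs used in MM. The PSMD4 peak was 691 bp wide in MM.1S and 574 bp in RPMI8226. At PSMB4 the widths were 1007 bp and 807 bp. BCL9, a coactivator of Wnt signalling, had a promoter peak of 1398 bp in MM.1S and 813 bp in RPMI8226. TXNIP, an inhibitor of thioredoxin, had 851 bp and 474 bp, and ANP32E, a chaperone of the histone variant H2A.Z, had 771 bp and 761 bp.

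MCL1 lies on the minus strand at chr1:150560895-150579738. Its promoter peak was 1322 bp wide in MM.1S (chr1:150578771-150580092, 9 of 9 libraries) and 675 bp in RPMI8226 (chr1:150579372-150580046, 5 of 5 libraries). From 30 kb downstream to 60 kb upstream of its start there were 9 peaks in MM.1S, all shared, and 17 in RPMI8226, of which 4 were of that line only, yet the peaks covered 9112 bp in MM.1S and 7898 bp in RPMI8226. The second widest MM.1S peak of the window, 2849 bp at the 3′ end of MCL1 (chr1:150561024-150563872), corresponded to 4 RPMI8226 peaks of 719, 333, 355 and 506 bp. The peaks of RPMI8226 only included one 9553 bp into ENSA (5 of 5) and one within the MCL1 locus 7650 bp downstream of the start (3 of 5). Another lay beyond the gene, by ADAMTSL4 (544 bp, 4 of 5).

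Peaks with AP-1 letters at places open in both lines sit in introns of ENSA, the next gene upstream of MCL1, which encodes an inhibitor of the phosphatase PP2A. The site printed above with both AP-1 and ATF::CEBP letters was called in 4 of 9 MM.1S libraries, at a width of 223 bp, and in 5 of 5 RPMI8226 libraries, at 547 bp. The next AP-1 site, at chr1:150611325-150612023 in MM.1S, was called in 9 of 9 and 5 of 5 libraries, at 699 and 665 bp. Since the lists do not name libraries, the culture condition of the 4 MM.1S libraries is not known from them.

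CKS1B and SHC1, which encodes an adaptor of receptor tyrosine kinases, start back to back. One MM.1S peak of 1307 bp (9 of 9) covered both starts, at chr1:154973752-154975058. RPMI8226 had a peak of 796 bp (5 of 5) there that ended at the same base. IL6R encodes the receptor for interleukin 6, a growth factor of myeloma cells made by stroma. Its promoter peak was 1678 bp wide in MM.1S and 1122 bp in RPMI8226, called in every library. IL6R was the nearest coding gene for 9 peaks in MM.1S and 10 in RPMI8226, with 1 and 2 of them absent from the other list. The upstream site with STAT3 letters, printed above, lay 6851 bp before its start in MM.1S, where it was called in 7 of 9 libraries, and it was called in 5 of 5 in RPMI8226. STAT3 is the factor that signals from this receptor, and the letters were in 57 of 7239 MM.1S peaks of chromosome 1 (0.787%) and in 55 of 8655 RPMI8226 peaks (0.635%).

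ADAR, an RNA-editing enzyme induced by interferon, was the nearest coding gene for 12 MM.1S and 18 RPMI8226 peaks. Of these, 2 were of MM.1S only and 7 of RPMI8226 only, and 5 of the latter were called in every library. Some lay inside the next gene, KCNN3. CTXND2 was the nearest coding gene for 3 peaks of MM.1S only and for none in RPMI8226.

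Most gene promoters of the epidermal differentiation complex had no peak. The section that holds these genes and the S100 genes still had 43.2 peaks per Mb in MM.1S and 47.4 in RPMI8226. A promoter peak was found at 7 of 45 genes in MM.1S (15.6%, 7.75 to 28.8) and 6 in RPMI8226 (13.3%, 6.26 to 26.2), and 5 had one in both. LORICRIN, a major protein of the cornified envelope, had a 1597 bp peak in all 9 MM.1S libraries and a 243 bp peak in 4 of 5 RPMI8226 libraries. LCE3A had peaks of 951 bp and 726 bp in every library of both. LCE1E was open in MM.1S only, in all 9 libraries, as was SPRR2A in 6 of 9, and SPRR1A in RPMI8226 only, in 3 of 5. The filaggrin gene FLG, the involucrin gene IVL and the remaining 35 had none in either line.

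The S100 genes had promoter peaks about as often as all coding genes of the window together, though not all at the same genes in both lines. A peak was found at 11 of 16 genes in MM.1S (68.8%, beside 70.9% of all coding genes there) and at 10 in RPMI8226 (62.5%, beside 66.2%). Without the epidermal genes, the coding genes of the window stood higher, at 84.1% and 78.8%. Of the S100 genes, 8 had a peak in both lines, among them S100A4, S100A6, S100A10 and S100A11. At S100A8 and S100A12, which encode proteins of neutrophils and monocytes, only RPMI8226 had one, called in 5 of 5 libraries at S100A8 (433 bp) and 4 of 5 at S100A12 (411 bp). S100A9, the partner of S100A8, had a shared peak 2188 bp upstream of its start in MM.1S (8 of 9) and 2132 bp upstream in RPMI8226 (5 of 5), and RPMI8226 alone had a second one 65 bp upstream (3 of 5). The latter, the S100A8 and S100A12 peaks and 2 peaks between genes made the longest run of RPMI8226-only peaks in the window. It held 5 in a row over 42.8 kb at chr1:153357707-153400536, with supports from 3 to 5 and a median of 0% repeated words. Farther along the block, S100A14, S100A16 and S100A1 had a promoter peak in MM.1S only, called in 9, 4 and 6 of 9 libraries. The S100A14 peak, whose centre is printed above, was 721 bp wide.

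The histone cluster had a promoter peak at 9 of 11 genes in MM.1S (81.8%, 52.3 to 94.9, which includes the 70.9% of all coding genes of the window) and at 7 of 11 in RPMI8226 (63.6%, beside 66.2%). The widest MM.1S peak of the window, 3177 bp at chr1:149885482-149888658 (9 of 9), covered H2BC21, H2AC20 and H2AC21, where RPMI8226 had 3 separate peaks, each called in 5 of 5. H3C14 and H3C15 had one in MM.1S only, in 9 and 8 of 9 libraries. These MM.1S peaks lay nearest to H2AC18 and H2AC19, and 37.0% and 43.2% of their words were repeated. RPMI8226 also had promoter peaks at H2AC18 (165 bp, 3 of 5) and H2AC19 (668 bp, 5 of 5), which did not overlap them. A run of 4 RPMI8226-only peaks lay in the same cluster (chr1:149844266-149885175), with a median of 0% repeated words.

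The copied families had promoter peaks at 16 of 22 genes in MM.1S (72.7%) and 14 of 22 in RPMI8226 (63.6%), near the 70.9% and 66.2% of all coding genes of the window. Without the epidermal genes, the shares of the window were 84.1% and 78.8%. All genes of the NBPF family listed in the window had one in MM.1S, and NBPF19 (302 bp, 3 of 9 libraries) was the only one of them without one in RPMI8226. FAM72C (218 bp, 5 of 9) was the other gene open in MM.1S only. The 6 PPIAL4 genes, copies of a cyclophilin gene, had none in either line. The 3 longest runs of MM.1S-only peaks were all in copied DNA before H2BC21. They held 5 peaks over 46.9 kb at chr1:143216801-143263711, 4 over 105 kb at chr1:143972826-144077631 beside FAM72C, and 4 over 23.8 kb at chr1:149206248-149230087, with NBPF9 as the nearest coding gene. Over 50% of the DNA was repeated in all 5, 3 of 4 and all 4 of these peaks. The NBPF9 site printed above was called in all 9 MM.1S libraries, with 83.1% of its words repeated. It lay 108159 bp upstream of the NBPF9 start, within an intron of another annotated gene.

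Few genes outside the lists had a promoter peak in 1 line only. MM.1S alone had promoter peaks at CIART, a repressor of the circadian clock (1187 bp, 9 of 9), ITGA10 (7 of 9), TMOD4 (6 of 9), SV2A (4 of 9) and THEM5 (3 of 9), and none of these peaks overlapped one of RPMI8226. BNIPL (9 of 9) and CELF3 (7 of 9) also had one in MM.1S alone, but these peaks overlapped RPMI8226 peaks that lay more than 2500 bp from the transcript starts of these genes, so that the places were open in both lines. RPMI8226 alone had them at ECM1, which encodes an extracellular matrix protein (268 bp, 5 of 5), and DCST2 (3 of 5). The third run of 4 RPMI8226-only peaks, over 23.3 kb at chr1:154499552-154522839, lay across SHE and TDRD10. The widest RPMI8226 peaks were 2421 bp at ADAM15 (chr1:155050544-155052964), 1772 bp at DENND4B and 1586 bp at PMVK, all shared and called in 5 of 5 libraries. The third widest MM.1S peak, 2516 bp, lay by HJV (chr1:146037047-146039562).

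Motif letters were counted on both strands in the middle 200 bp of each distal peak, where matches of different motifs may overlap. AP-1 letters (TGAGTCA) were in 19 of 229 MM.1S peaks (8.30%, 5.38 to 12.6) and 37 of 228 RPMI8226 peaks (16.2%, 12 to 21.6). The rest of chromosome 1 gave 8.67% and 16.1%, and all chromosome 1 peaks together 7.13% and 13.7%. In RPMI8226, peaks of that line only held AP-1 letters more often than shared ones, at 19 of 75 (25.3%) and 18 of 153 (11.8%), a difference of 13.6 points (3.15 to 25.2). In the rest of the chromosome the same classes stood at 20.9% and 12.1%. MM.1S had them in 4 of 81 line-only (4.94%) and 15 of 148 shared peaks (10.1%), a difference of -5.20 points (-11.8 to 2.89) that did not exceed counting error.

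The RPMI8226-only AP-1 peaks include the sites upstream of CHD1L, which encodes a chromatin remodeller, and of POGZ, which encodes a heterochromatin-associated protein. They lay 5250 bp and 4760 bp before those genes and were called in 5 of 5 libraries, at 511 bp and 212 bp. Interferon regulatory factor letters (IRF, GAAANNGAA) showed the opposite pattern in RPMI8226, in 2 of 75 line-only (2.67%) and 20 of 153 shared peaks (13.1%), a difference of -10.4 points (-17.0 to -2.49). In the rest of the chromosome they were in 10.5% and 13.4%. These were the only 2 of 12 comparisons of line-only with shared peaks, 6 motifs in each line, whose interval left out 0, and the intervals were not adjusted for their number. Over all distal peaks of the window IRF letters were in 12.2% (MM.1S) and 9.65% (RPMI8226), beside 12.9% and 12.1% in the rest of the chromosome. ATF::CEBP letters were in 3.49% and 3.07%, beside 3.99% and 3.84% in the rest, and STAT3 letters in 1.31% and 0.877%, beside 0.739% and 0.630%. CTCF letters (AGNGGGCGC) were in 0.873% and 1.32%, beside 2.32% and 1.76%, and ETS letters (CCGGAAGT) in 0 of 229 and 0 of 228, which by the Wilson interval allows up to 1.65% and 1.66%, beside 0.370% and 0.267% in the rest.

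All 8 plasma cell markers examined, such as SDC1 and IRF4, had a promoter peak in both lines. Of all coding genes 76.8% had one in MM.1S and 71.8% in RPMI8226. Of 8 stromal markers 5 had one in both lines, and COL3A1, LUM and THY1, which encodes CD90, had none in either. The study noted some HS5 cells among those sorted from the lower chamber, and their part in single peaks was not tested.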

How the data were processed

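Omni-ATAC libraries of MM.1S (9) and RPMI8226 (5) were made after MONO, TSW or CO culture. Samples were grouped by their titles. According to the methods of the study, the authors mapped reads to hg38 with Bowtie2, left out reads mapping to several places, kept 1 read per position and called peaks per library with MACS3; peaks in at least 3 libraries of a line, over all conditions, formed its list. The threshold, the joining of boundaries, tool versions and any shift of reads for the transposase are not given in the sources used here. The deposited support number is in a unit other than reads, a count of libraries from 3 to 9 or from 3 to 5, with no normalization by the authors. The lists hold no reads; read totals per library are given in the supplement of the study and were not used here.

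Starts were taken as 0-based and printed 1-based. Genes came from GENCODE release 44, and a promoter was 2500 bp on either side of any transcript start. Repeated DNA was the share of 50-base words found more than once, on either strand, in the hg38 chromosomes. Shares carry Wilson, differences Newcombe and odds ratios Woolf intervals (95%). Their coverage was checked on simulated independent counts, whereas neighbouring peaks are not independent. Ratios of odds ratios were not part of that check. No p-value was computed, since each line has 1 list. Python 3.11.15, numpy 2.4.6, pandas 2.3.3 and matplotlib 3.10.9 were used. Named genes were the members of the candidate, epidermal, S100, histone and copied family lists, with the 3 longest line-only runs and 3 widest peaks per list; CIART, ECM1 and other genes outside them, ADAR's neighbours, the printed sites and the CCAAT letters were chosen after their values were seen. The window, lists and motifs were chosen with earlier results of these data known. 1 site and 1 gene of the window are not reported here. Alternatives changed the overlap, promoter width, annotation, class of peaks, comparator and window.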

Additional observations from a re-analysis of the deposited data

Results flagged for a closer look

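The sharing of window peaks relative to the rest of chromosome 1 differed between the lines. The odds ratio of MM.1S over that of RPMI8226 was 0.569 (0.427 to 0.760), at 0.499 (0.336 to 0.741) among distal peaks, 0.841 (0.543 to 1.30) among promoter peaks and 0.807 (0.555 to 1.17) without the section before H2BC21. The promoter share also differed between the lines in this way, with a ratio of 0.773 (0.600 to 0.998), and of 0.758 (0.555 to 1.04) without that section. For calls in every library the ratio was 1.16 (0.885 to 1.51). Each line contributes 1 list, and cultures were not replicated at that level. The intervals of these ratios treat the lists as independent, although shared places are counted in both. The sharing ratio is also not separate from the difference in peak number between the lists.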

How the results depend on the processing

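Of 48 alternatives to 7 results, 39 kept the direction and the side of 0 on which the interval lay. The log2 ratio of peak number lost its call among promoter peaks (0.0032), against all other peaks of chromosomes 1 to 22 (0.069) and without the section before H2BC21 (0.086). MM.1S sharing came clear of 0 against the other autosomal peaks (8.63 points) and without that section (9.40), and turned to -3.38 among distal peaks. Calls in every library fell to 1.67 points among distal MM.1S peaks, to -2.30 among distal RPMI8226 peaks and to 2.47 when RPMI8226 peaks needed 1 library fewer. The cause of these changes was not tested. The promoter share stayed above the rest in both lines under every alternative tried, including RefSeq starts, which were added after seeing the data (12.4 points in MM.1S and 16 in RPMI8226).

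No paired analysis was possible because the lists pool the libraries and hold no value for one of them. Leaving out each library was not run for the same reason. Read totals per library, given in the supplement of the study, were not used here, and the part of depth in the calls was not tested. Overlap of peaks depends on their width, which differed between the lists.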
